A study of Mus musculus with 6 samples.

Results

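The genes of glucose uptake, glycolysis, lactate handling and glycogen metabolism were examined in the RNA-seq data of mouse tibialis anterior (TA) muscle, a fast muscle of the lower leg. Members were chosen as the rows of the deposited table whose gene symbol is on a list of 34 muscle genes of these pathways. Of the 34 symbols, 33 were found among 41709 genes, and 32 had a mean of at least 1 TPM (a level corrected for transcript length, on a scale that sums to 1000000 in each library) over the 6 libraries and were tested. The member that was not tested, Aldoc, was between 0.0623 and 0.292 TPM in all 6 libraries. Aldoa, the muscle aldolase, had no row under its own symbol. A pair of rows named Aldoa_1 and Aldoa_2 are described apart and are not among the counts or the sums.

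The 3 LrpprcWT muscles had been electroporated with a pCMV6 plasmid for Flag-tagged wild-type mouse Lrpprc, an RNA-binding protein of mitochondria that also acts as a transcriptional co-activator. The 3 LrpprcP27A muscles received the same plasmid with proline 27 replaced by alanine (P27A), a change made to block hydroxylation of that proline. Both groups were TA muscles of male C57BL/6J mice, injected with hyaluronidase before electroporation and collected 14 days after it, with wild-type and variant plasmids in opposite legs. The study used mice of 4 and 27 months, and the age of the mice behind these libraries is not given in the sources used here. The plasmid's CMV promoter is not restricted to one cell type, both groups keep their own Lrpprc gene, and no library came from a muscle without plasmid. Libraries with the same replicate number were treated as pairs only where stated, and the smallest two-sided p of an exact permutation test of 3 against 3 is 0.1.

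Glucose enters muscle through the transporters Slc2a4 (GLUT4) and Slc2a1 (GLUT1), is phosphorylated by hexokinase and is then either broken down to pyruvate and lactate or stored as glycogen. Several steps have a form that is typical of adult muscle fibres (Eno3, Pgam2, Pfkm, Hk2, Slc2a4) and another that is found in most cells (Eno1, Pgam1, Pfkl and Pfkp, Hk1, Slc2a1). Fast fibres rely on glycogen breakdown by the phosphorylase Pygm, which phosphorylase kinase (Phka1, Phkb, Phkg1) switches on, while protein phosphatase 1, brought to glycogen by subunits such as Ppp1r3a and Ppp1r3c, acts in the opposite direction.

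The stretches upstream of the transcription start are shown for 1 member that fell and 2 that rose, described with their values in the paragraphs on each step, so that both directions can be set beside their promoters. Coordinates are of GRCm39, each stretch is written 5′ to 3′ on the gene's strand and ends at the base before the annotated start, and capitals mark the letters ACGTG on either strand (CACGT when read on the gene's own strand), the core that hypoxia-inducible factors and many E-box proteins share.
Pgam1 (chr19:41900091-41900340, plus strand): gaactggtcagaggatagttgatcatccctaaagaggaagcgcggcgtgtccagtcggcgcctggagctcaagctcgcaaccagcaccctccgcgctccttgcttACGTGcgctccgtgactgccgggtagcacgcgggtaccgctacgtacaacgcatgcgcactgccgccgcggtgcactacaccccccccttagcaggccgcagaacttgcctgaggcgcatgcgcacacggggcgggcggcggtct
Fbp2 (chr13:63006553-63006802, minus strand): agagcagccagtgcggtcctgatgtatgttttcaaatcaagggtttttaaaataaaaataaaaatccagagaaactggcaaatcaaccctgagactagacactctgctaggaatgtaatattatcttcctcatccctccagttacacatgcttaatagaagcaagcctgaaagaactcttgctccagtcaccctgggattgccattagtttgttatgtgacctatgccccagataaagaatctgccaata
Ppp1r3c (chr19:36714071-36714320, minus strand): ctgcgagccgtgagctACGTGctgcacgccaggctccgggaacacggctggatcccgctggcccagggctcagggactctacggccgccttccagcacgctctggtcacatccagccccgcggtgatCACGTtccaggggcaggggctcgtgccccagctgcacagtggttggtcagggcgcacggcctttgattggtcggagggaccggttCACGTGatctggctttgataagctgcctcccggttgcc
The ACGTG core stood once in the Pgam1 window and at 3 places in the Ppp1r3c window, one of them the palindrome CACGTG, and was not found in the Fbp2 window. Over the 34 listed genes, Aldoa included, 12 promoters of this length (35.3%) held ACGTG on either strand, against 17.0% of the promoters of 21757 protein-coding genes. The palindrome CACGTG, which contains ACGTG on both strands, was in 14.7% of the listed genes' promoters and in 6.3% of all. GGGCGG, the core of the GC box, was in 32.4% and 36.3%, TATAAA in 8.8% and 11.9%, and the MEF2 site in 5.9% (Pgam2 and Ppp1r3a) and 2.8%. Of the 8 members that passed the test, Pgam1 and Ppp1r3c were the only ones with ACGTG in this window, and Ldha, with 2 palindromes, did not pass it. These matches are descriptions of letters and were not tested.

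On the deposited scale, 4 members were lower and 4 were higher in LrpprcP27A muscles at an adjusted p under 0.05 (limma on log2(TPM + 1), Benjamini-Hochberg over 11611 genes). Eno1, Hk1, Ldhb and Pgam1 fell, and Pfkfb3, Fbp2, Phka1 and Ppp1r3c rose. Among all genes tested, 23.3% were called lower and 1.34% higher. The median log2 fold change of the members was -0.06, that of all genes was -0.32, and 17 of the 32 members were below 0. In 6 members every LrpprcP27A library was below every LrpprcWT library (Hk1, Gpi1, Gapdh, Pgam1, Eno1 and Ldhb), against 47.6% of all genes. In 9 members every LrpprcP27A library was above (Slc2a4, Pfkm, Pfkfb1, Pfkfb3, Pygm, Phka1, Phkb, Phkg1 and Ppp1r3c), against 3.51% of all genes.

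These counts moved with the scaling and with single libraries. Median-of-ratios scaling, which sets the typical gene to no change, moved the median of all genes from -0.32 to about 0 (-0.005), and that of the members to 0.31. There 2 members were called lower (Hk1 and Eno1) and 8 higher (Slc2a4, Pfkm, Slc16a3, Pfkfb1, Phka1, Phkb, Phkg1 and Ppp1r3c), beside 6.03% and 5.25% of all genes. On that scale 3 members were below and 15 above in every library, beside 19.0% and 19.6% of all genes. With the replicate number as a block, 7 were lower and 5 higher, beside 48.4% and 2.69%, and with the block and median-of-ratios scaling together 5 were lower and 14 higher, beside 15.8% and 13.4%. The number of calls over all genes also rested on single libraries. Without the LrpprcWT library of replicate 3, 0 members were called in either direction by limma (13 had an unadjusted p under 0.05), and of 11476 genes 14 (0.122%) were lower and 3 (0.0261%) higher. Without LrpprcWT replicate 2, 8 members were lower and 6 higher, beside 59.5% and 2.62% of all genes. Without LrpprcP27A replicate 1, 4 were lower and 5 higher, beside 14.6% and 1.26%. Without LrpprcWT replicate 1, LrpprcP27A replicate 2 or LrpprcP27A replicate 3, 2 were lower in each case, beside 2.33%, 4.44% and 3.80% of all genes. In these 3 fits limma called 0 members higher, beside 0.218%, 0.282% and 0.239% of all genes, and 11, 11 and 10 members had an unadjusted p under 0.05 in either direction. No called member changed direction in any of these 6 fits.

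**Figure D1:**
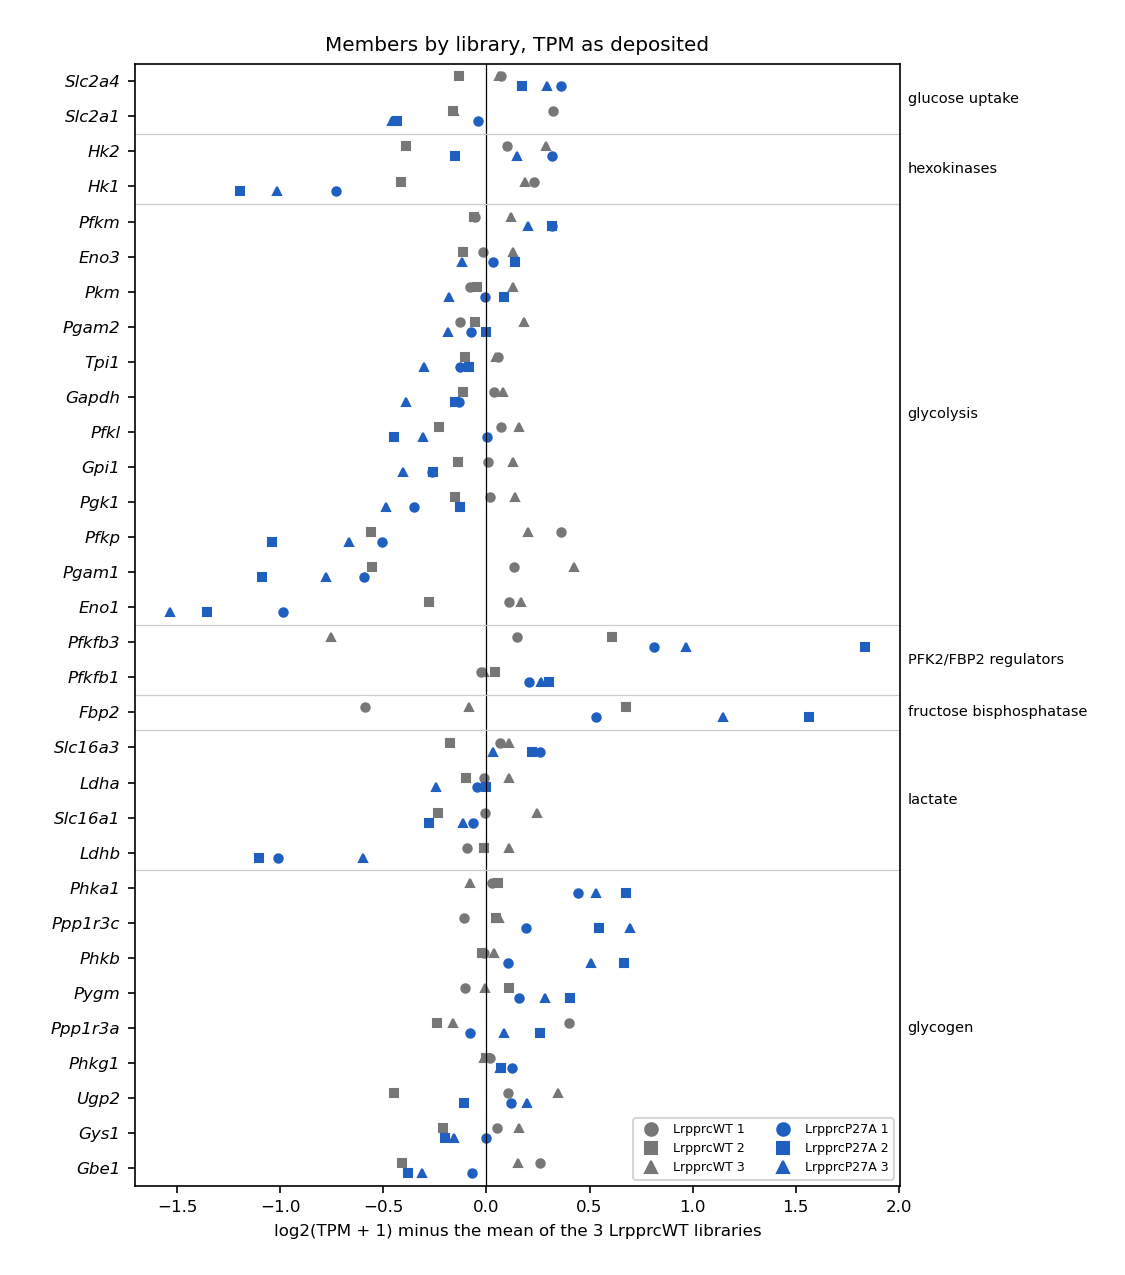
Levels of the 32 tested members in each library, as log2(TPM + 1) minus the mean of the 3 LrpprcWT libraries (x axis), grouped by step of the pathway. Grey marks are LrpprcWT and blue marks LrpprcP27A libraries, and the mark's shape gives the replicate. Eno1, Hk1 and Ldhb lie to the left in all 3 LrpprcP27A libraries, and Pfkfb3, Phka1 and Ppp1r3c to the right.

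Among the transporters, Slc2a4, the insulin-regulated glucose carrier of muscle, was at 215.3, 187.1 and 214.2 TPM in LrpprcWT and 263.6, 231.5 and 251.8 TPM in LrpprcP27A muscles. The groups did not overlap, and the log2 fold change of 0.28 ± 0.11 (SE) did not pass the test (limma adjusted p = 0.0757) on the deposited scale but did with median-of-ratios scaling (0.65, limma adjusted p = 0.022). Slc2a1, the carrier of most other cells, was far lower, at 5.99, 3.99 and 4.02 TPM against 4.44, 3.14 and 3.08 TPM. Its groups overlapped, although each LrpprcP27A library was below its same-numbered LrpprcWT library (limma adjusted p = 0.21).

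Hk1, the hexokinase of most tissues, fell from 8.21, 4.88 and 7.92 TPM to 3.73, 2.42 and 2.87 TPM. Every LrpprcP27A library was below every LrpprcWT library, with a log2 fold change of -0.98 ± 0.21 (SE, limma adjusted p = 0.0213), and Hk1 was called lower with median-of-ratios scaling too. Hk2, the main hexokinase of muscle fibres, was at 125.1, 88.8 and 142.9 TPM in LrpprcWT and 145.8, 104.8 and 129.6 TPM in LrpprcP27A muscles. The Hk2 groups overlapped (limma adjusted p = 0.657), and its log2 fold change of 0.11 turned to -0.09 without LrpprcWT replicate 2.

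The enolases convert 2-phosphoglycerate to phosphoenolpyruvate. Eno1, the form of most cells, had the lowest adjusted p of all members, with 82.1, 62.5 and 85.6 TPM in LrpprcWT and 37.8, 29.1 and 25.6 TPM in LrpprcP27A muscles. The lowest LrpprcWT library was well above the highest LrpprcP27A library, and the log2 fold change was -1.29 ± 0.17 (SE, limma adjusted p = 0.0111). The muscle form Eno3 was at 5602.1, 5232.9 and 6190.4 TPM against 5784.6, 6230.9 and 5208.6 TPM, with a log2 fold change of 0.02 and groups that overlapped.

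The phosphoglycerate mutases gave the same arrangement. Pgam1, the form of most cells, fell from 25.9, 15.7 and 31.9 TPM to 15.3, 10.6 and 13.3 TPM, a log2 fold change of -0.82 ± 0.24 (SE, limma adjusted p = 0.0424). Its groups were separated by a small gap between LrpprcWT replicate 2 and LrpprcP27A replicate 1, and the call was lost with median-of-ratios scaling (-0.46, limma adjusted p = 0.119). Pgam2, the muscle form, was at 3862.0, 4054.0 and 4790.2 TPM in LrpprcWT and 4006.6, 4207.3 and 3701.9 TPM in LrpprcP27A muscles. The Pgam2 groups overlapped, and its log2 fold change of -0.09 was above 0 after rescaling over nuclear protein-coding genes (0.10) and with median-of-ratios scaling (0.29).

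Phosphofructokinase carries out the committed step of glycolysis. Pfkm, its muscle form, was at 1954.9, 1944.9 and 2206.1 TPM in LrpprcWT and 2534.7, 2531.5 and 2335.7 TPM in LrpprcP27A muscles. The groups did not overlap, and the log2 fold change of 0.28 ± 0.10 (SE) missed the threshold on the deposited scale (limma adjusted p = 0.0654) and passed it with median-of-ratios scaling (0.65, limma adjusted p = 0.0317). Pfkp, the platelet form, was at 3.85, 1.56 and 3.35 TPM against 1.66, 0.837 and 1.38 TPM, with a log2 fold change of -0.74 ± 0.25 (SE) and an adjusted p of 0.0596 in limma. Each LrpprcP27A library was below its same-numbered LrpprcWT library, and with the replicate block Pfkp was called lower (limma adjusted p = 0.000519). Pfkl, the liver form, was at 2.67, 1.98 and 2.90 TPM against 2.50, 1.57 and 1.82 TPM and did not pass the test (limma adjusted p = 0.26).

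The other enzymes between glucose 6-phosphate and pyruvate were abundant, and none of them passed the test on the deposited scale without the replicate block. Gpi1, the isomerase, was at 349.5, 315.1 and 379.9 TPM in LrpprcWT and 288.5, 290.1 and 262.2 TPM in LrpprcP27A muscles. Gapdh, the dehydrogenase often used as a reference gene, was at 2179.2, 1960.5 and 2241.2 TPM and 1935.9, 1908.4 and 1621.9 TPM. Neither pair of groups overlapped, and neither gene passed the test (limma adjusted p = 0.0599 for Gpi1 and 0.136 for Gapdh). With the replicate block Gpi1 was called lower (limma adjusted p = 0.0409), as was Pgk1, the first ATP-forming kinase (limma adjusted p = 0.0468), whose libraries ranged from 890.3 to 1088.9 TPM with LrpprcWT and from 706.9 to 905.6 TPM with LrpprcP27A. Tpi1 (1212.1 to 1554.5 TPM over the 6 libraries) and Pkm, the pyruvate kinase (1437.0 to 1779.6 TPM), had log2 fold changes of -0.17 and -0.04, and their groups overlapped. The log2 fold changes of all 5 genes of this paragraph were above 0 with median-of-ratios scaling, between 0.05 and 0.34, and none passed the test there.

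Aldoa_1, the more abundant of the rows that carry the aldolase's name, was at 7623.2, 8410.7 and 8905.0 TPM in LrpprcWT and 9071.9, 10450.2 and 9109.9 TPM in LrpprcP27A muscles, so that the groups did not overlap. Its log2 fold change of 0.20 ± 0.11 (SE) did not pass the test (limma adjusted p = 0.177). Aldoa_2 was between 0.382 and 1.40 TPM, under the minimum for the test. What separates the rows is not given in the sources used here.

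Lactate dehydrogenase is built from Ldha, the subunit that prevails in fast muscle, and Ldhb, which prevails in heart and oxidative fibres. Ldhb fell from 106.4, 112.8 and 122.7 TPM to 55.9, 52.5 and 74.7 TPM. The groups were clearly apart, with a log2 fold change of -0.91 ± 0.15 (SE, limma adjusted p = 0.0129), and the call was lost with median-of-ratios scaling (-0.54, limma adjusted p = 0.062). Ldha was at 1501.9, 1412.6 and 1635.3 TPM and 1468.6, 1509.0 and 1278.1 TPM, and its groups overlapped (limma adjusted p = 0.471). The lactate exporter of fast fibres, Slc16a3 (MCT4), was at 132.7, 111.9 and 136.8 TPM against 152.0, 147.8 and 129.6 TPM, and passed the test with median-of-ratios scaling (0.54, limma adjusted p = 0.028) but not on the deposited scale (limma adjusted p = 0.259). Slc16a1 (MCT1), the carrier of oxidative fibres and many other cells, was at 26.9, 22.8 and 32.2 TPM against 25.8, 22.1 and 24.9 TPM, with each LrpprcP27A library below its same-numbered partner.

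The largest increases were in a regulator and a bypass enzyme of glycolysis. Pfkfb3 makes fructose 2,6-bisphosphate, the strongest activator of phosphofructokinase, and was at 30.3, 42.0 and 15.7 TPM in LrpprcWT and 48.6, 99.8 and 54.1 TPM in LrpprcP27A muscles. The lowest LrpprcP27A library stood just above the highest LrpprcWT library, and the log2 fold change was 1.21 ± 0.36 (SE, limma adjusted p = 0.0426). Fbp2, the muscle fructose bisphosphatase, which runs the phosphofructokinase step backwards towards glycogen, was at 11.6, 29.3 and 16.9 TPM against 26.5, 55.0 and 41.0 TPM. Its groups overlapped, since LrpprcWT replicate 2 was above LrpprcP27A replicate 1, but each LrpprcP27A library was above its same-numbered partner, and the log2 fold change was 1.08 ± 0.34 (SE, limma adjusted p = 0.0476). Replicate 2 was the highest of its group in both genes and both groups. With median-of-ratios scaling both log2 fold changes were larger (1.57 and 1.44) and both missed the threshold (limma adjusted p = 0.0632 and 0.0676), and both passed it again when the block was added (limma adjusted p = 0.00767 and 0.00481). Pfkfb1, the form of liver and muscle, was at 16.3, 17.2 and 16.5 TPM against 19.4, 20.8 and 20.2 TPM, with groups that did not overlap (limma adjusted p = 0.096).

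Of the 9 glycogen members, 2 rose (22.2%), 0 fell and 7 did not pass the test. Among all genes 1.34% were called higher and 23.3% lower. With median-of-ratios scaling 4 of the 9 were called higher (44.4%) and 0 lower, beside 5.25% and 6.03% of all genes. In 5 of the 9 every LrpprcP27A library was above every LrpprcWT library on the deposited scale, beside 3.51% of all genes. With median-of-ratios scaling this held for 7, beside 19.6% of all genes. Phka1, the regulatory alpha subunit of phosphorylase kinase in muscle, rose from 178.4, 182.0 and 165.5 TPM to 238.3, 280.3 and 253.5 TPM. The groups were clearly apart, with a log2 fold change of 0.55 ± 0.10 (SE, limma adjusted p = 0.0167). Ppp1r3c, a subunit that targets protein phosphatase 1 to glycogen and favours its synthesis, rose from 155.5, 173.3 and 175.0 TPM to 191.7, 245.6 and 272.1 TPM. The log2 fold change was 0.48 ± 0.14 (SE, limma adjusted p = 0.0404), and both genes were called higher with median-of-ratios scaling as well. Without the trend in limma's variance the calls of Ppp1r3c and Fbp2 were lost (limma adjusted p = 0.0548 and 0.0524).

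Phkb, the beta subunit of the kinase, was at 78.0, 77.5 and 80.9 TPM in LrpprcWT and 84.7, 125.8 and 112.2 TPM in LrpprcP27A muscles, and was called higher with the replicate block (limma adjusted p = 0.0112) but not without it (0.43 ± 0.15 SE, limma adjusted p = 0.0598). Phkg1, its catalytic subunit in muscle, was at 128.5, 126.6 and 125.8 TPM against 138.3, 133.5 and 132.9 TPM, a small shift (log2 fold change 0.09) in groups that did not overlap, and it passed the test with median-of-ratios scaling (limma adjusted p = 0.0454). Pygm, the muscle glycogen phosphorylase itself, was at 3269.9, 3794.7 and 3493.2 TPM against 3914.6, 4648.3 and 4278.1 TPM. All 3 LrpprcP27A libraries were above the LrpprcWT libraries, and the log2 fold change of 0.28 ± 0.11 (SE) did not pass the test (limma adjusted p = 0.0796).

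The groups overlapped in the synthase and in 3 other genes of glycogen metabolism. Gys1, the muscle glycogen synthase, was at 271.2, 226.3 and 292.2 TPM in LrpprcWT and 261.4, 227.4 and 234.4 TPM in LrpprcP27A muscles. Ppp1r3a, the targeting subunit of striated muscle, was at 72.7, 46.4 and 48.9 TPM against 51.9, 65.8 and 58.2 TPM. Gbe1, the branching enzyme, ranged from 26.7 to 43.1 TPM over the 6 libraries, and Ugp2, which makes UDP-glucose, from 321.7 to 557.6 TPM. Their adjusted p in limma lay between 0.278 and 0.773.

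**Figure D2:**
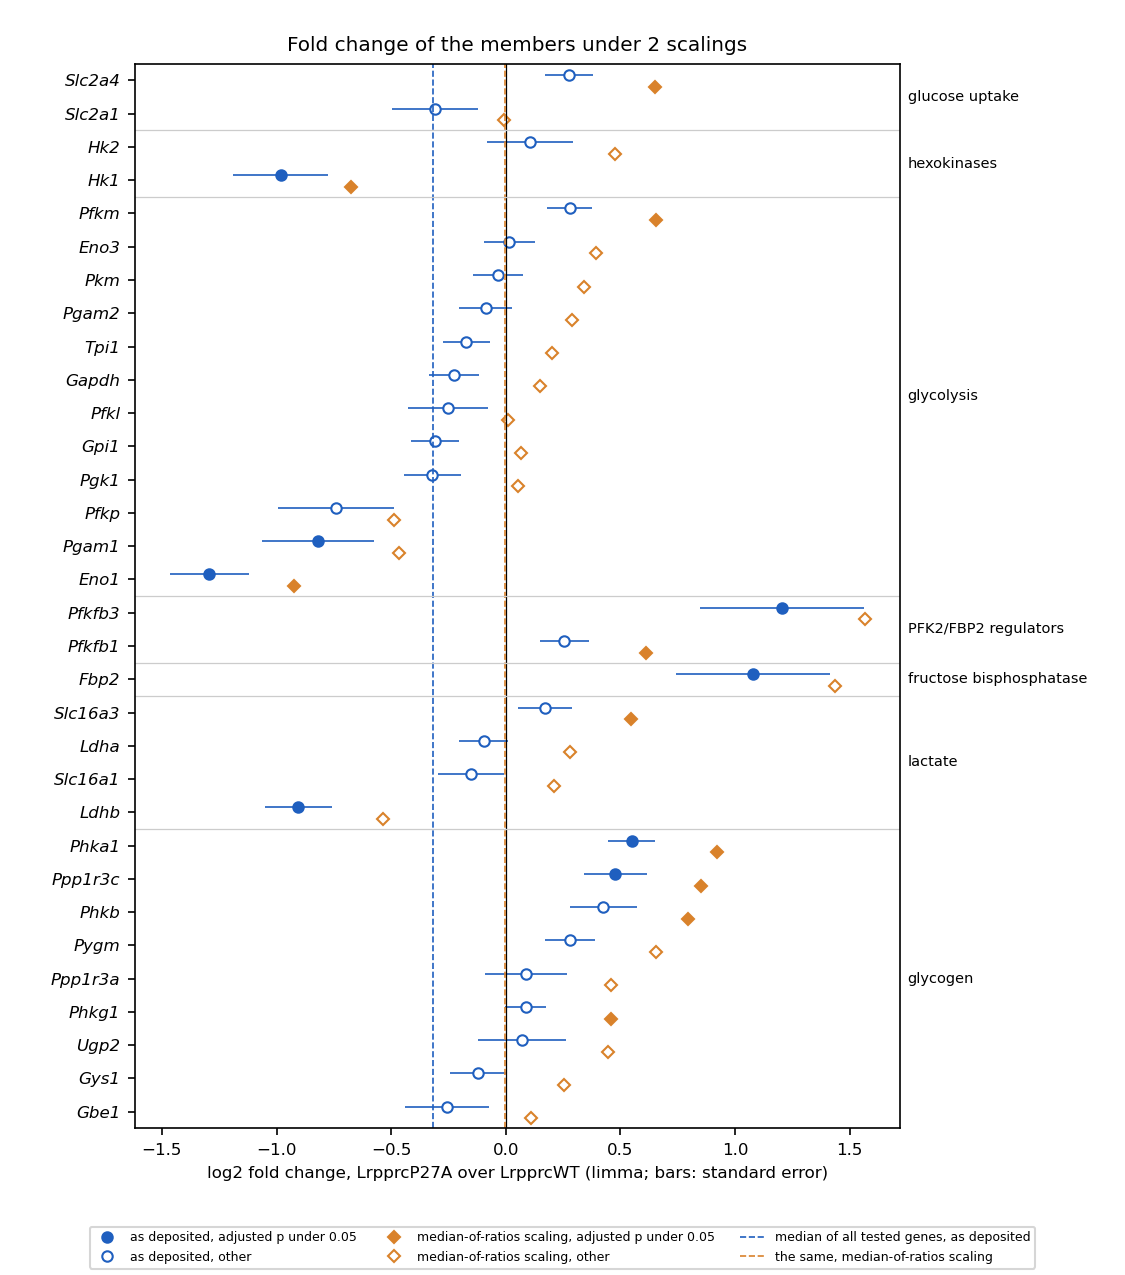
Log2 fold change of the 32 tested members, LrpprcP27A over LrpprcWT (x axis), on the deposited scale (blue circles, with standard error) and after median-of-ratios scaling (orange diamonds), filled where the limma adjusted p was under 0.05. The dashed lines are the medians of all 11611 genes on the same scales, -0.32 and -0.005. The glycogen genes lie to the right of the median of all genes on both scales, and Eno1, Hk1, Pgam1, Pfkp and Ldhb to the left.

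The summed level of the members overlapped between the groups on the deposited scale, at 25710.0 ± 1717.0 TPM in LrpprcWT and 26016.5 ± 1624.8 TPM in LrpprcP27A muscles (SD, n = 3; exact permutation test, two-sided, p = 1). As a share of the TPM of nuclear protein-coding genes it was 4.42%, 4.59% and 4.49% against 5.33%, 5.38% and 4.85%, so that the groups did not overlap (exact permutation test, two-sided, p = 0.1). The glycogen members summed to 4668.7, 4975.3 and 4979.1 TPM in LrpprcWT and 5392.3, 6160.7 and 5874.1 TPM in LrpprcP27A muscles, with groups apart on both scales (exact permutation test, two-sided, p = 0.1 for each). Glycolytic enzymes and hexokinases summed to 18775.3 ± 1534.7 and 18179.5 ± 1380.7 TPM (SD, n = 3), with groups that overlapped (exact permutation test, two-sided, p = 0.7). The sums of members and of glycolytic enzymes leave out Aldoa_1, which averaged 8313.0 TPM in LrpprcWT and 9544.0 TPM in LrpprcP27A muscles. On the deposited scale the direction of the glycolytic sum therefore holds only without that row. As a share of nuclear protein-coding TPM the sum without that row went the other way. It averaged 3.283% in LrpprcWT and 3.625% in LrpprcP27A muscles, with groups that overlapped (exact permutation test, two-sided, p = 0.2).

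The calls were also counted by level. None of the 8 members with a mean of 1000 TPM or more was called, and their log2 fold changes lay between -0.23 and 0.28. Among all 63 tested genes of that level 7.94% were called lower and 4.76% higher. The 10 members between 100 and 1000 TPM held 0 calls lower and 2 higher (Phka1 and Ppp1r3c), beside 25.5% and 4.28% of the 561 genes of that level. The 14 members under 100 TPM held the 4 that fell and 2 that rose, beside 23.3% and 1.17% of 10987 genes, and ranged from -1.29 to 1.21.

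A ratio of 2 genes within a library is not changed by a factor that scales the whole library, and 12 pairs were compared, one of them the row Aldoa_1 with the member Aldoc and the others pairs of members. In 9 pairs the groups did not overlap. Quantile normalization, which applies no single factor to a library, left 6 pairs apart, and Pgam2 to Pgam1, Pfkm to Pfkl and Slc16a3 to Slc16a1 then overlapped. Each of these had an exact permutation p of 0.1 (two-sided, n = 3 per group), the smallest that the design allows, and 0.133 after adjustment over the 12 pairs, so that none could pass 0.05. In 8 of the 9 the ratio was higher in LrpprcP27A muscles, with the muscle form over the form of most cells or of oxidative fibres. The muscle form was also the more abundant gene in each of these 8 pairs. Among all tested genes the median log2 fold change was 0.016 at 1000 TPM or more, -0.213 from 100 to 1000 TPM and -0.325 under 100 TPM. How often unrelated genes of such levels would give ratios that do not overlap was not tested. Pfkm is shared by the pairs with Pfkp and Pfkl. The ratio of Eno3 to Eno1 was 68.3, 83.7 and 72.4 in LrpprcWT and 152.9, 213.9 and 203.9 in LrpprcP27A muscles, a 2.53-fold difference of the mean ratios on the log scale. The ratio of Hk2 to Hk1 was 15.3, 18.2 and 18.0 against 39.1, 43.3 and 45.1, a 2.48-fold difference. In both pairs the gap between the groups was wider than the range within either of them on the log scale.

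The ratio of Pfkm to Pfkp was 2.66-fold higher and that of Pfkm to Pfkl 1.57-fold higher in LrpprcP27A muscles. The first of these rests on Pfkp, whose value is uncertain because 41.1% of its windows are shared with Pitrm1. The ratio of Ldha to Ldhb was 14.1, 12.5 and 13.3 against 26.3, 28.8 and 17.1, with LrpprcP27A replicate 3 nearest to the LrpprcWT libraries. Pgam2 to Pgam1 (1.71-fold), Slc2a4 to Slc2a1 (1.59-fold) and Slc16a3 to Slc16a1 (1.26-fold) were higher too. The ratio of Pfkfb1 to Pfkfb3 was lower, at 0.540, 0.409 and 1.05 against 0.399, 0.208 and 0.374. Gys1 to Pygm (0.756-fold), Ppp1r3a to Ppp1r3c (0.763-fold) and Aldoa_1 to Aldoc (1.42-fold, with Aldoc near 0) overlapped between the groups, with exact permutation p from 0.2 to 0.6.

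**Figure D3:**
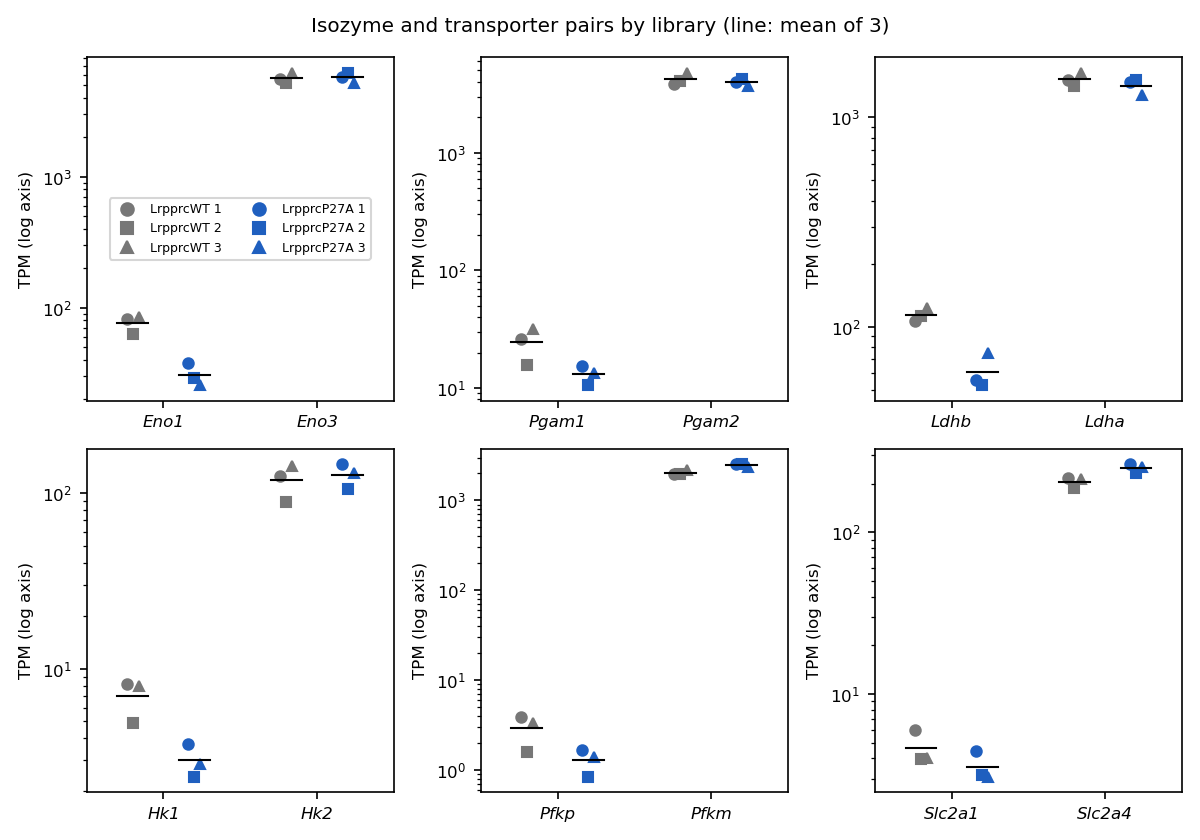
TPM in each library (y axis, log scale) for 6 pairs of members, with the form of most cells or of oxidative fibres on the left of each panel and the muscle form on the right. Grey marks are LrpprcWT and blue marks LrpprcP27A libraries, and lines are means of 3. In LrpprcP27A muscles the means of the left-hand genes are 0.402 to 0.762 times those in LrpprcWT, and the means of the right-hand genes 0.935 to 1.21 times, with the Pfkp values uncertain because of sequence shared with Pitrm1.

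Markers of fibre types and of other cells were counted in the same fit, where 23.3% of all genes were called lower and 1.34% higher. The macrophage list was lower in 10 of 10 genes, and its summed level was 316.4 to 634.4 TPM in LrpprcWT and 105.7 to 216.3 TPM in LrpprcP27A muscles, with Lyz2 at 0.34 times, C1qa at 0.373 times and C1qb at 0.379 times its LrpprcWT mean. The fibroblast list was lower in 8 of 10, at 1305.5 to 1976.4 against 491.9 to 923.0 TPM, with Col3a1 at 0.234 times and Col1a1 at 0.233 times, while Gsn did not pass the test (0.969 times). The endothelial list (Cdh5, Cldn5 and Pecam1 the most abundant) was lower in 3 of 10 (30.0%), near the 23.3% of all genes. With the replicate block it was lower in 8 of 10 (80.0%), beside 48.4% of all genes. Its sums overlapped between the groups. The slow fibre list, led by Atp2a2, Myl3 and Tpm3, was lower in 7 of the 9 genes tested, at 157.6 to 284.0 against 56.3 to 77.1 TPM. With median-of-ratios scaling 4 macrophage, 6 fibroblast, 5 slow fibre and 0 endothelial genes were called lower, beside 6.03% of all genes. None of the markers of these lists that were tested was at 0 in a whole group. Their part in the fall of Eno1, Hk1, Pgam1 and Ldhb was not tested, and in whole muscle fewer cells of a type and less RNA per cell cannot be told apart.

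The fast fibre list marked the tissue as labelled. Tnnt3, Mylpf and Atp2a1 were each between 12983.0 and 22904.1 TPM, far above every slow fibre gene, and the list summed to 116095.7 ± 7683.3 TPM in LrpprcWT and 112253.6 ± 8658.3 TPM in LrpprcP27A muscles (SD, n = 3). Of the 10 fast fibre genes Mylpf fell (0.664 times, limma adjusted p = 0.0168) and Actn3 rose, and the other 8 did not pass the test. The call of Mylpf was lost with median-of-ratios scaling (log2 fold change -0.22 against -0.59, limma adjusted p = 0.36). With the replicate block Myh1 was called lower and Myh4 higher as well (limma adjusted p = 0.015 and 0.0203). In that fit 48.4% of all genes were lower and 2.69% higher. The red cell list (Hbb-bs, Hba-a2 and Hba-a1 leading) had 0 of 6 called by limma without the block and 2 higher with it.

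**Figure D4:**
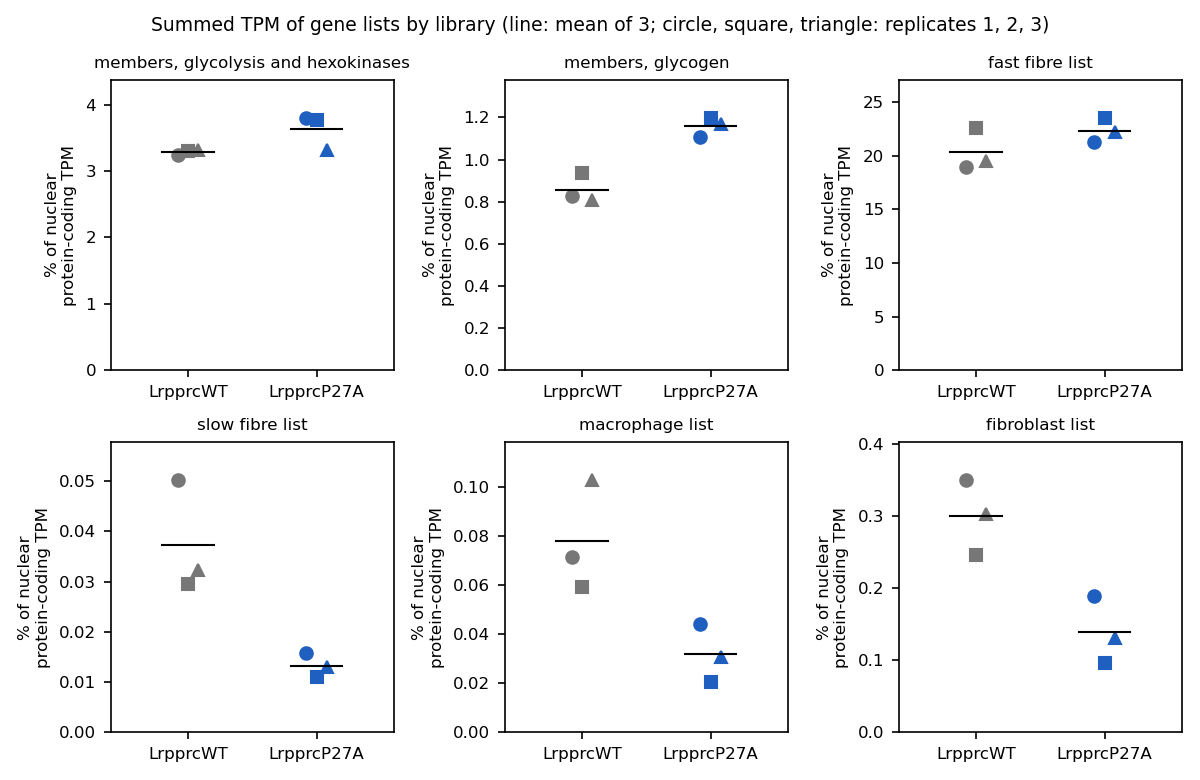
Summed TPM of member groups and marker lists in each library, as a percent of the TPM of nuclear protein-coding genes (y axis, from 0). Marks are libraries, lines are means of 3. The glycogen members lie higher in all 3 LrpprcP27A libraries, and the slow fibre, macrophage and fibroblast lists lie lower.

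Some members share sequence with other genes, which bears on how reads could be assigned. Of the windows of 100 bases in the canonical transcript, 51.9% in Eno1 also occur in transcripts of other genes, chiefly Eno1b, which was listed at a mean of 0.182 TPM in LrpprcWT and 0.0181 TPM in LrpprcP27A muscles. The ratio of LrpprcP27A to LrpprcWT was 0.402 for Eno1 alone and 0.401 for both rows summed. For Pfkp, 41.1% of windows are shared with the neighbouring Pitrm1, and the ratio was 0.443 alone and 0.795 for both summed, so that the Pfkp value is uncertain. For Gapdh 85.1% of windows recur in 97 other genes, for Pgk1 67.0%, for Pgam1 47.8%, for Pgam2 75.1% (with Dbnl) and for Phkg1 51.0% (chiefly with Sumf2). The ratio was 0.938 for Pgam2 alone and 0.936 with Dbnl added, and 1.06 for Phkg1 both alone and with Sumf2 added. These values stay uncertain, by an amount that the percent of windows does not give. The share was 85.3% for Aldoa (with Gm57854), 39.1% for Slc16a3 (with Csnk1d) and 31.2% for Pkm. It was 26.2% for Ldha, 26.0% for Ugp2 and 22.3% for Pfkl (with Cfap410). The ratio of Slc16a3 was 1.13 alone and 1.09 with Csnk1d added, and that of Pfkl 0.779 alone and 0.758 with Cfap410 added. Hk2, Pfkm, Slc2a4, Pfkfb3, Fbp2, Pygm, Phka1 and Ppp1r3c share none.

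The rest of the pathway was read from lists of 86 further genes, of which 70 were tested. Of these, 12 were called lower (17.1%) and 5 higher (7.14%) on the deposited scale, beside 23.3% and 1.34% of all genes. Their median log2 fold change was -0.17, and that of all genes -0.32. With median-of-ratios scaling 2 were lower (2.86%) and 13 higher (18.6%), beside 6.03% and 5.25% of all genes. With the replicate block 25 were lower (35.7%) and 8 higher (11.4%), beside 48.4% and 2.69% of all genes. Without LrpprcWT replicate 3 limma called 0 in either direction, beside 0.122% lower and 0.0261% higher among all genes. Without LrpprcWT replicate 2 it called 30 lower (42.9%) and 8 higher (11.4%), beside 59.5% and 2.62% of all genes.

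Among 15 other genes of glycolysis, 2 were lower (Emb and Ldhd) and 3 higher, Tigar and Gpd2 among them, beside 23.3% and 1.34% of all genes. With median-of-ratios scaling 1 of the 15 was lower and 3 were higher, beside 6.03% and 5.25% of all genes. Tigar, a phosphatase that lowers fructose 2,6-bisphosphate, rose from 36.9, 47.2 and 35.2 TPM to 73.1, 73.6 and 62.0 TPM (log2 fold change 0.80, limma adjusted p = 0.0154). Its groups were far apart. It acts on the product of Pfkfb3, which rose as well. Gpd2, the mitochondrial glycerol phosphate dehydrogenase, rose from 43.5 to 49.1 TPM to 58.8 to 65.1 TPM (limma adjusted p = 0.0363). Emb, a partner protein of lactate carriers, fell from 2.04, 1.82 and 3.74 TPM to 0.654, 0.244 and 0.589 TPM (log2 fold change -1.21, limma adjusted p = 0.016). Minpp1 and Adpgk, not called on the deposited scale without the block, were called lower with it (limma adjusted p = 0.00946 and 0.0193) and without LrpprcWT replicate 2 (limma adjusted p = 0.0208 and 0.00909).

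Of 19 other glycogen genes, 5 were lower (26.3%) and 0 higher on the deposited scale, beside 23.3% and 1.34% of all genes. With median-of-ratios scaling 1 of the 19 was lower (5.26%) and 5 were higher (26.3%), beside 6.03% and 5.25% of all genes. Their difference from the members was not tested. Pygb, the brain form of the phosphorylase, fell from 5.54, 2.99 and 4.67 TPM to 2.87, 1.90 and 2.06 TPM (limma adjusted p = 0.0425), and Ppp1r3d, another targeting subunit, from 1.81, 1.69 and 1.47 TPM to 0.645, 0.687 and 0.654 TPM (limma adjusted p = 0.0175). Phkg2, the catalytic subunit of phosphorylase kinase in liver, Stbd1, a glycogen-binding protein, and Ppp1ca, a catalytic subunit of protein phosphatase 1, made up the 5. With the block Pgm2 was lower too (limma adjusted p = 0.000474) and Pgm2l1 higher (limma adjusted p = 0.016).

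Among 36 genes of uptake and regulation, 5 were lower (13.9%) and 2 higher (5.56%), beside 23.3% and 1.34% of all genes. Hif1a, a hypoxia-inducible transcription factor, was at 15.5, 7.39 and 12.5 TPM in LrpprcWT and 5.70, 5.65 and 5.28 TPM in LrpprcP27A muscles (log2 fold change -0.92, limma adjusted p = 0.0289). The groups did not overlap, and the LrpprcWT libraries spread widely. Pik3r1 and Akt1, of insulin signalling, fell (limma adjusted p = 0.0187 and 0.0308), as did Tbc1d4 and Prkaa1. Prkab2, a subunit of AMP-activated protein kinase, rose from 103.8, 126.8 and 93.7 TPM to 135.4, 172.8 and 175.9 TPM (limma adjusted p = 0.0308), and Tbc1d1, which restrains Slc2a4 traffic, from 23.5 to 29.9 TPM to 35.4 to 46.9 TPM (limma adjusted p = 0.0427). With median-of-ratios scaling none of the 36 was called lower and 5 were called higher (13.9%), beside 6.03% and 5.25% of all genes. Slc2a3, another glucose carrier, was called higher with the block (limma adjusted p = 0.0115), within low values of 0.836 to 2.16 TPM.

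Between 17774 and 19053 genes were above 0 per library, and the read depth is unknown. Genes of the mitochondrial genome took 36.0% to 46.1% of the TPM. Rn18s-rs5, a ribosomal RNA gene, was at 8874 to 17614 TPM in LrpprcWT and 37023 to 44435 TPM in LrpprcP27A libraries, and its part in the results was not tested. Lrpprc was at 35.1, 37.0 and 75.2 TPM in LrpprcWT and 26.9, 29.7 and 26.0 TPM in LrpprcP27A muscles, and TPM per gene do not tell plasmid from own transcripts or the 2 plasmids from each other.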

How the data were processed

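RNA from 6 TA muscles was sequenced by the authors (TruSeq RNA v2 libraries, 100-bp paired-end reads, trimmed and aligned to GRCm39 in CLC Genomics Workbench), who deposited TPM values per gene. The methods give 1 μg of RNA per library, and the labels a different amount. TPM keeps no depth, so no counting error can be given.

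Genes averaging 1 TPM or more (11611 of 41709) were fitted on log2(TPM + 1) with limma 3.58.1 in R 4.3.3 (empirical Bayes with a trend), LrpprcP27A against LrpprcWT, with Benjamini-Hochberg adjustment over all of them at 0.05. A fold change on this scale understates that of low genes. Ratios and sums were compared by exact two-sided permutation tests. The alternatives were a pseudocount of 0.1, no filter, a mean TPM of at least 5, no trend, a Kruskal-Wallis test, the replicate block, 3 other scalings, that block after median-of-ratios scaling, and fits that left out each library.

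Replicate numbers come from the labels and are shared by both groups. The study's legend calls the muscles contralateral, but the sources do not state that a number is a mouse. Across genes, deviations from the group mean correlated by 0.363, 0.528 and 0.356 within the 3 same-numbered pairs, and the numbers were taken as pairs.

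The members and gene lists were chosen with earlier results of these data known. All members are named. From each further pathway list up to 3 genes per direction with the largest change past the threshold in either fit, paired or not, were named, and the 3 most abundant of each marker list. One gene that this rule would name and one promoter sequence are not reported here. Ldhd, Phkg2, Stbd1, Ppp1ca, Tbc1d4, Prkaa1, Actn3, Lrpprc and Rn18s-rs5 were added after their values were seen. The fit was tested on simulated data. Positions and promoters come from GENCODE on GRCm39, with all 34 symbols matched, and the promoters shown are the 250 bases before the start of the canonical transcript. Whether reads were counted by strand is not given in the sources used here, so reads of overlapping genes cannot be told apart.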

Additional observations from a re-analysis of the deposited data

How the results depend on the processing

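Limma with no filter (21450 genes) and the Kruskal-Wallis test each called 0 members and 0 other pathway genes in either direction, with 15 members at an unadjusted p under 0.05 in both. Of all genes the unfiltered fit called 0.196% lower and 0.0420% higher, and the Kruskal-Wallis test called 0 in either direction. The Kruskal-Wallis test of 3 against 3 cannot give a p low enough to pass after adjustment, and the cause in the unfiltered fit was not tested. Without the trend 2 members and 3 other genes were higher, beside 1.14% of all genes, and the calls of Fbp2 and Ppp1r3c were lost. At a mean TPM of at least 5 the call of Fbp2 was lost (limma adjusted p = 0.053). There 7 other genes were lower, beside 22.0% of all genes, with fewer genes tested. The replicate block gave 7 members lower, and 25 other genes lower and 8 higher, and on the deposited scale it changed the calls of Gpi1, Pgk1, Pfkp and Phkb and of no other member. Rescaling over nuclear protein-coding genes gave 7 members higher (1.88% of all genes) and 3 other genes lower (5.66% of all genes). On that scale 3 members were below and 11 above in every library, beside 29.0% and 9.05% of all genes. Median-of-ratios scaling gave 2 members lower and 8 higher, 3 below and 15 above in every library (19.0% and 19.6% of all genes), a median of 0.313, and 2 other genes lower and 13 higher. With the block added it gave 14 members higher, 3 below and 15 above, a median of 0.313, and 7 other genes lower and 25 higher. The block there added calls of Hk2, Eno3, Pfkfb3, Fbp2, Pygm and Ugp2 higher and of Pfkp, Pgam1 and Ldhb lower. Quantile normalization gave 3 members lower and 7 higher (4.46% and 4.25% of all genes). On that scale 3 members were below and 9 above in every library, beside 16.1% and 22.1% of all genes. The median was 0.158 beside 0.038 for all genes, and 1 other gene was lower and 11 higher. With each library left out in turn, 0 to 8 members were lower and 0 to 6 higher. Among all genes 0.122% to 59.5% were lower and 0.0261% to 2.62% higher. In these fits 6 to 13 members were below and 9 to 10 above in every library. Among all genes this held for 48.5% to 74.4% and 3.93% to 6.09%. Groups of 3 and 2 libraries separate more easily than groups of 3 and 3. The median of the members was -0.132 to 0.005, and 0 to 30 other genes were lower and 0 to 8 higher. The count above in every library was put through the alternatives after the data were seen. The 9 isozyme ratios that did not overlap were 6 to 11 under their alternatives.

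No member called in the main comparison changed direction. Members not called there did so with median-of-ratios scaling, with or without the block, at log2 fold changes of 0.065 for Gpi1, 0.008 for Pfkl, 0.203 for Tpi1, 0.15 for Gapdh, 0.053 for Pgk1, 0.287 for Pgam2, 0.34 for Pkm, 0.278 for Ldha, 0.209 for Slc16a1, 0.253 for Gys1 and 0.11 for Gbe1. With quantile normalization these were 0.089 for Slc2a1, 0.152 for Pfkl, 0.065 for Pkm, 0.038 for Ldha, 0.167 for Slc16a1, 0.09 for Gys1 and 0.044 for Gbe1. After rescaling over nuclear protein-coding genes they were 0.014 for Tpi1, 0.098 for Pgam2, 0.151 for Pkm, 0.089 for Ldha, 0.028 for Slc16a1 and 0.065 for Gys1. With a library left out, Hk2 ranged from -0.09 to 0.25, Pgam2 from -0.152 to 0.004, Eno3 from -0.045 to 0.085, Pkm from -0.095 to 0.038, Ugp2 from -0.154 to 0.242 and Ppp1r3a from -0.031 to 0.288. Median-of-ratios scaling divides each library by a single factor, 1.226, 0.9736 and 1.254 in LrpprcWT and 0.8965, 0.8508 and 0.8993 in LrpprcP27A libraries. It therefore moves all genes upwards in LrpprcP27A against LrpprcWT muscles. The nuclear protein-coding share was 53.25% to 61.68% in LrpprcWT and 48.73% to 51.41% in LrpprcP27A libraries. Dividing by it shifts all genes in the same direction. Reversals on both scales include that common shift. What else lay behind any reversal was not tested. The depth of the libraries is unknown, so members under about 5 TPM, such as Pfkp, Pfkl and Hk1 in LrpprcP27A muscles, have a counting error that cannot be stated.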
